A study of Rattus norvegicus with 24 samples.

Results

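The erythroid genes described here were 9 genes of red blood cells and their precursors: Alas2, Rhag, Epb41, Car1, Car2, Slc4a1, Aqp1, Klf1 and Epor. Members were the probe sets whose single gene symbol in the array annotation was one of these names. They gave 13 probe sets for 8 of the 9 genes, among 12783 probe sets with 1 symbol for 10411 genes. Klf1 had no such probe set, so that no level of it is given. Epb41, Car2, Slc4a1, Aqp1 and Epor each had 2 probe sets, and all 13 were kept. Expression was measured in bone, spleen lymphocyte, kidney, liver, pituitary and hypothalamus of male rats of the Sprague-Dawley strain, aged 4, 10, 18 or 24 months. Each of the 24 arrays held RNA pooled from 10 rats, with 1 array per tissue and age. All 6 tissues were taken from the same 10 rats at each age, and the 4 arrays of a tissue were 4 ages, so that the spread within a tissue includes age and the spread between rats was not measured.

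Red blood cells arise in the bone marrow, and in rodents also in the spleen, from precursors that depend on erythropoietin. Maturing precursors fill with hemoglobin, for which they need heme and iron, and rebuild their membrane around a spectrin skeleton anchored to band 3. They then lose their nucleus, and young red cells in the circulation still carry some of these messages. Several of the proteins also work outside the erythroid lineage, above all in the kidney, where water channels, anion exchange and carbonic anhydrase serve the handling of water and acid.

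Promoter sequence was looked at because the measured genes were highest together in 1 tissue or, for Aqp1, in 2. RefSeq windows (rat build GRCr8) of the 250 bases before a start site were found for 6 members: Alas2, Aqp1, Epb41, Epor, Klf1 and Rhag. The windows of Alas2 and Epb41 lay wholly inside the annotated gene, and 49 bases of that of Epor did, and these bases are not printed. Capitals mark AGATAA or TGATAA, letters that GATA factors bind, and CACCC, letters that Krüppel-like factors bind, each on either strand. The window of Rhag (chr9:27594391-27594640, minus strand) is shown for a gene measured above 100 in bone alone, that of Epor (chr8:28770372-28770572, minus strand) for the receptor, and that of Aqp1 (chr4:85812534-85812783, plus strand) for the gene shared with kidney.
Rhag: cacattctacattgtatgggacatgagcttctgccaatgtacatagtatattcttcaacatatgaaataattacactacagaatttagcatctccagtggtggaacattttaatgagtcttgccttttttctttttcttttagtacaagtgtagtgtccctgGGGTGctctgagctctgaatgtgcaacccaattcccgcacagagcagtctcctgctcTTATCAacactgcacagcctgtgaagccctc
Epor: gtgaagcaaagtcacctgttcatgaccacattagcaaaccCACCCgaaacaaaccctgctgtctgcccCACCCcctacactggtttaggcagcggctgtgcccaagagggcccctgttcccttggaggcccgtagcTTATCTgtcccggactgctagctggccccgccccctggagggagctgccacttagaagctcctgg
Aqp1: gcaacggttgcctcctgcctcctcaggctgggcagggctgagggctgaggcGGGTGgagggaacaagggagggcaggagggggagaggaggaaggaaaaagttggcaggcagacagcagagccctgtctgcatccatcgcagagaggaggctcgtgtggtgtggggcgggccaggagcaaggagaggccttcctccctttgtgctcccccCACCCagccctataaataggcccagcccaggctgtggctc
The letters AGATAA or TGATAA stood in 4 of the 6 windows (Alas2, Epor, Klf1 and Rhag) and in 16.9% of 33469 RefSeq windows of the same length. In the window of Aqp1 they were not found. CACCC stood in 4 of the 6 windows (Aqp1, Epor, Klf1 and Rhag) against 49.2% of all windows. The commoner letters CANNTG, also searched on both strands, stood in the windows of Epor and Rhag and in 65.5% of all windows.

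Values are MAS5.0 signals, the brightness of a probe set scaled by the authors to a target of 500 on every array, and a signal under 100 was taken as low. A level of 1 probe set cannot be set against that of another, so that genes were compared only in their differences between arrays. Array medians lay between 213 and 309. The 5th percentile was 33.5 for bone at 18 months and 9.13 to 15.7 for every other array. Bone and spleen lymphocyte carried markers of their labels. All 8 measured osteoblast markers were called higher in bone than in the 4 tissues that are not blood-forming in the adult. Of 11 T cell markers, 10 were called higher in spleen lymphocyte than in the same 4 tissues. In hypothalamus, the summed signal of 10 hepatocyte markers was 13256 at 10 months and 2165 to 3785 at the other ages. Its part in the differences was not tested. Differences between tissues were tested with limma on log2(signal + 50) over all 24 arrays and 15866 probe sets, with tissue and age as factors, and called at an adjusted p under 0.05 and a difference of at least 1 on the log2 scale. The added 50 makes the difference of a low gene smaller than that of its raw signals.

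In bone, every measured erythroid gene was called higher than in kidney, liver, pituitary and hypothalamus. This held for 8 of 8 genes and 12 of 13 probe sets, where 10.2% of all probe sets were called higher and 9.4% lower. The median difference of the 8 genes was 3.07 on the log2 scale, and that of all probe sets was 0.02. The differences fell into a wide range, from 6.18 for Car1 and 5.58 for Alas2 to 1.61 for Aqp1. In a tissue sample, more cells of a type and more RNA per cell cannot be told apart. Markers of other marrow cells went with them, and their part in these differences was not tested: all 8 neutrophil, 4 platelet, 8 macrophage and 10 cell division markers were called higher in bone, and 3 of 5 osteoclast, 1 of 2 B cell, 1 of 11 T cell and 1 of 9 endothelial markers. The summed neutrophil signal was 50515 to 143951 in bone and 1930 to 16815 in spleen lymphocyte. Of 10 hepatocyte, 6 neuron, 9 pituitary, 8 oligodendrocyte, 9 proximal tubule and 3 intercalated cell markers, 0 were called higher in bone.

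**Figure D1:**
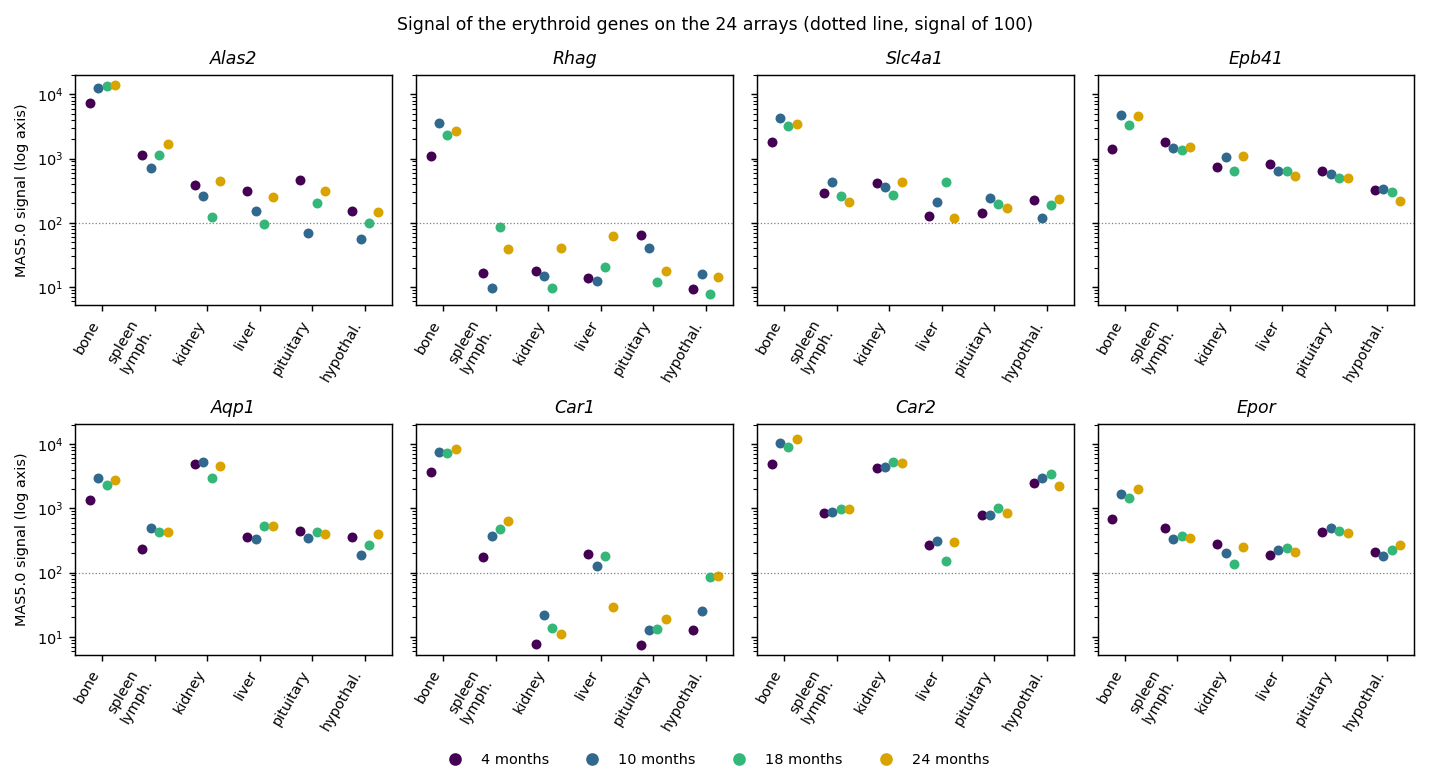
Each panel plots the MAS5.0 signal of 1 erythroid gene (log axis) on the 24 arrays, by tissue and coloured by age, with a dotted line at a signal of 100. Bone is highest for Rhag, Alas2, Car1, Slc4a1 and Epor without overlap with any other tissue, while the highest group for Aqp1 is kidney.

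Alas2 makes the erythroid form of aminolevulinate synthase, which catalyses the first step of heme synthesis. Its signal in bone was 7371, 12632, 13584 and 13937 at 4, 10, 18 and 24 months. In spleen lymphocyte it was 1149, 702, 1151 and 1684. In the other 4 tissues it lay between 56.8 and 466. Bone lay above spleen lymphocyte, and spleen lymphocyte above all other arrays, in both cases without overlap, whereas kidney, pituitary, liver and hypothalamus overlapped each with the next in order of their means. Against the 4 tissues, Alas2 was 5.58 ± 0.24 (SE) higher in bone on the log2 scale (adjusted p = 1.03e-14, limma), a 47.9-fold difference. Bone exceeded spleen lymphocyte by 3.31 ± 0.31 (adjusted p = 1.4e-08, limma).

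Of the membrane proteins, the anion exchanger Slc4a1 (band 3) and the Rh-associated glycoprotein Rhag are integral proteins of the red cell membrane, Epb41 (protein 4.1) ties the spectrin skeleton to it, and Aqp1 is a water channel. Rhag had signals of 1081, 3629, 2310 and 2647 in bone at 4, 10, 18 and 24 months. On the other 20 arrays it lay between 7.73 and 87.4, and no array outside bone reached 100. Bone did not overlap with any other tissue, and the other 5 tissues overlapped each with the next. The limma difference of bone from the 4 tissues was 4.98 ± 0.24 (adjusted p = 6.85e-14).

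For Slc4a1, the probe set used for counts gave 1782, 4342, 3246 and 3422 in bone, 422, 364, 274 and 438 in kidney, and 295, 439, 265 and 213 in spleen lymphocyte. The second probe set gave 4620, 8668, 8473 and 11796 in bone, 962, 964, 556 and 942 in kidney, and 374, 337, 384 and 548 in spleen lymphocyte. With either probe set, bone stood apart from all other tissues. They differed in the place of kidney, which overlapped with spleen lymphocyte on the first and lay above it on the second, by a narrow margin of 556 against 548. Bone exceeded the 4 tissues by 3.49 ± 0.23 on the first (adjusted p = 1.33e-11, limma) and by 4.91 ± 0.18 on the second (adjusted p = 7.14e-16, limma).

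Epb41 was well above 100 in every tissue. Its signal was 1410, 4786, 3280 and 4554 in bone and 1798, 1453, 1379 and 1513 in spleen lymphocyte, and it lay between 222 and 1080 elsewhere. The 4-month bone array lay inside the range of spleen lymphocyte, while the 3 later bone arrays lay above it. The limma difference of bone from the 4 tissues was 2.42 ± 0.20 (adjusted p = 6.59e-10). The second probe set of Epb41, with 434, 746, 839 and 642 in bone and 1064, 325, 245 and 426 in spleen lymphocyte, was the only one of the 13 not called in this comparison (0.93 ± 0.23, adjusted p = 0.00161, limma), since it did not reach the minimum difference.

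Aqp1 was the one member with its highest signals outside bone. In kidney it had 4963, 5337, 2965 and 4578, and in bone 1363, 2968, 2315 and 2735, so that the lowest kidney array (2965) lay just under the highest bone array (2968). Spleen lymphocyte had 235, 484, 421 and 432, and the remaining 12 arrays lay between 186 and 537. The second probe set gave 8731, 8332, 7701 and 8138 in kidney and 2495, 6634, 5428 and 7184 in bone, with every kidney array above every bone array. Spleen lymphocyte lay at 33.1 to 191 on it. With kidney among the 4 tissues, the difference of bone from their mean was the smallest of the 8 genes on the first probe set (1.61 ± 0.19, adjusted p = 1.88e-07, limma) and larger on the second (3.43 ± 0.21, adjusted p = 3.04e-12, limma).

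Car1 and Car2 are cytosolic carbonic anhydrases, which convert carbon dioxide and water to bicarbonate and protons, and Car2 is also known from osteoclasts, kidney and glia. Car1 had signals of 3713, 7514, 7348 and 8396 in bone and 175, 374, 481 and 636 in spleen lymphocyte. It lay between 28.6 and 192 in liver and under 100 on all arrays of kidney, pituitary and hypothalamus. Its difference between bone and the 4 tissues was the largest of the 8 genes (6.18 ± 0.26, adjusted p = 7.2e-15, limma). Car2 was spread more widely. It had 4881, 10245, 9021 and 11911 in bone, 4215, 4418, 5329 and 5138 in kidney, and 2478, 3002, 3463 and 2243 in hypothalamus, with 153 to 1027 on the other 12 arrays. The 4-month bone array lay inside the range of kidney. On the second probe set of Car2 bone (6667 to 13335) lay above kidney (2920 to 3570) without overlap. Bone exceeded the 4 tissues by 2.64 ± 0.16 on the first (adjusted p = 2.71e-12, limma) and by 3.66 ± 0.16 on the second (adjusted p = 1.39e-14, limma).

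Epor is the receptor for erythropoietin. Its signal in bone was 687, 1693, 1455 and 1969, above the 407 to 496 of pituitary and the 336 to 486 of spleen lymphocyte. Pituitary and spleen lymphocyte overlapped, and hypothalamus, kidney and liver lay between 135 and 275. The limma difference of bone from the 4 tissues was 2.19 ± 0.19 (adjusted p = 1.03e-09), and on the second probe set, with 354, 416, 667 and 579 in bone, it was 1.81 ± 0.27 (adjusted p = 5.9e-06). Its ligand Epo was under 100 in all 4 arrays of bone, spleen lymphocyte, kidney and liver, the last pair of which are its known sites of synthesis.

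Spleen lymphocyte carried part of this pattern. Alas2, Car1 and Epb41 were called higher there than in the 4 tissues, and Rhag, Slc4a1, Epor, Car2 and Aqp1 were not. The 3 of 8 genes stood beside 11.9% of all probe sets called higher and 14.4% called lower. Alas2 and Car1 each differed by 2.27 (SE 0.24 and 0.26, adjusted p = 2.91e-08 and 1.06e-07, limma), and Epb41 by 1.39 ± 0.20 (adjusted p = 2.65e-06, limma). The values of the others were 0.22 for Rhag, 0.32 for Slc4a1, 0.48 for Epor, -0.51 for Car2 and -0.81 for Aqp1. On its second probe set Aqp1 was called lower (-1.73 ± 0.21, adjusted p = 1.74e-07, limma). The second probe set of Epb41 was not called (0.43 ± 0.23, adjusted p = 0.12, limma), so that the call of Epb41 depended on the probe set. In the same comparison 5 of 8 neutrophil and 6 of 10 cell division markers were called higher, and their part in these differences was not tested.

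Directly compared, bone was called higher than spleen lymphocyte for 8 of 8 genes and 12 of 13 probe sets, against 10.2% of all probe sets called higher and 6.77% lower. Of the probe sets used for counts, Rhag differed most (4.77 ± 0.31, adjusted p = 3.48e-11, limma). All its signals in spleen lymphocyte were under 100, and the value lay between 4.11 and 5.58 under the other settings. The second probe set of Aqp1 differed by 5.16 ± 0.26 (adjusted p = 6.43e-13, limma). That of Epb41 was not called (0.50 ± 0.29, adjusted p = 0.196, limma). Car1 differed by 3.91, Slc4a1 by 3.17, Car2 by 3.15, Aqp1 by 2.42 and Epor by 1.71. Epb41 had the smallest difference (1.03 ± 0.25, adjusted p = 0.00242, limma), and its call was lost without the bone array of 10, 18 or 24 months or the spleen lymphocyte array of 10 months (0.83 to 1.46 with each array left out in turn), and after centring each array on its median (0.82). The globins did not all follow. The probe set of Hbb was at 25468, 25931, 30498 and 37492 in bone and at 30158, 14920, 16459 and 27570 in spleen lymphocyte. These ranges overlapped, and the difference of 0.47 was not called. Ahsp, the chaperone of alpha globin, followed the members, with 5095, 10224, 8770 and 10733 in bone and 442, 754, 1201 and 1569 in spleen lymphocyte. The globin Hba-a3 lay at 5929 to 16204 in bone and 2315 to 3156 in spleen lymphocyte, without overlap. Of 7 globins and their chaperone, 3 were called higher in bone than in spleen lymphocyte and 0 lower. The probe set of Hbb is of a kind whose probes can match related genes, so that other beta globins may add to its signal. Of a pair of probe sets that the annotation gives to more than 1 beta globin gene, one lay at 19214 to 31265 in bone and 3509 to 9755 in spleen lymphocyte, without overlap, and the other at 17018 to 29877 and 26346 to 37776, with overlap. On a probe set given to the alpha globins Hba-a1 and Hba-a2, spleen lymphocyte lay above bone at every age (28536 to 49265 against 21130 to 33925). Another did the same. On a further one, bone was higher from 10 months on (over the 4 ages, 22573 to 37924 against 15878 to 27493). The log2 ratio of 3' to 5' signal, which is high in degraded RNA, differed between bone and spleen lymphocyte without overlap. It was 0.48 to 1.56 in bone and 1.88 to 3.74 in spleen lymphocyte for beta-actin, and 0.30 to 0.69 and 1.16 to 2.40 for GAPDH. In the other 4 tissues it was 1.10 to 3.09 and 0.12 to 2.06. Its part in the differences between tissues was not tested.

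**Figure D2:**
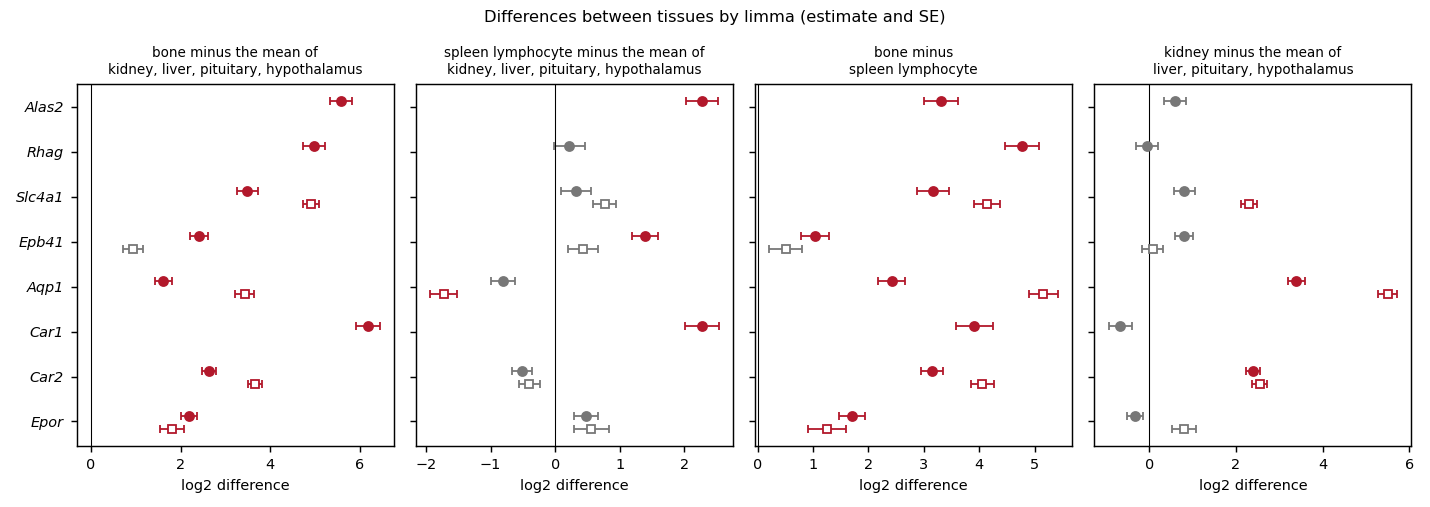
Points give the log2 difference of each probe set in 4 comparisons, with the SE of limma as bars. Circles are the probe sets used for counts, open squares the second ones, and red marks a call. All circles lie right of 0 and are red in both panels on bone, while in the panel on spleen lymphocyte 3 are red (Alas2, Epb41 and Car1) and in that on kidney Aqp1 and Car2.

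Kidney was compared with liver, pituitary and hypothalamus because Aqp1, Car2 and Slc4a1 have a known role there. Aqp1 and Car2 were called higher in kidney, 2 of 8 genes, where 7.87% of all probe sets were called higher and 8.86% lower. Aqp1, which lets water leave the proximal tubule, was 3.39 ± 0.20 higher (adjusted p = 1.53e-12, limma), and 5.50 ± 0.21 on its second probe set (adjusted p = 1.82e-15, limma). Car2 was 2.40 ± 0.16 higher (adjusted p = 2.8e-11, limma). Slc4a1, of which a shorter form acts in intercalated cells of the collecting duct, depended on the probe set. The difference was 0.81 ± 0.24 on the one used for counts (adjusted p = 0.00803, limma), under the minimum difference except without the kidney array of 18 months (1.001), and 2.31 ± 0.19 on the other (adjusted p = 4.98e-10, limma). All 9 proximal tubule markers and 2 of 3 intercalated cell markers were called higher in kidney. Alas2 differed by 0.59 ± 0.25 (adjusted p = 0.0664, limma), and Rhag, at -0.05, had no signal of 100 or more in any of these tissues.

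Other genes of red cell formation were compared between bone and the 4 tissues in the same fit. Of 14 measured genes of heme synthesis and iron uptake, 10 were called higher and 0 lower, led by Fech (3.78), which inserts iron into heme, the transferrin receptor Tfrc (2.92) and Tmem14c (2.07), a mitochondrial transporter of heme precursors. Of 7 globins and their chaperone, 5 were higher and 0 lower, with Ahsp at 6.81, Hba-a3 at 3.32 and Hbb at 2.10. Of 18 other membrane and cytoskeletal genes, 12 were higher and 1 lower. Rhd (3.86), the blood group antigen Kel (3.77) and the potassium channel Kcnn4 (3.58) had the largest differences, and the Lutheran antigen Bcam was the one called lower (-2.20). The medians of these lists were 1.22, 1.92 and 1.56, against 0.02 for all probe sets.

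Among 14 transcription factors, 10 were called higher and 1 lower, with a median of 1.51. Hemgn (5.24), Nfe2 (4.81) and Tal1 (4.22), all known from erythroid and megakaryocytic cells, differed most, and Nfia was lower (-1.35). Of 17 red cell enzymes, 9 were higher and 0 lower, with Alox15 (3.69), Bpgm (3.33), which makes the small-molecule effector of hemoglobin, and Ube2o (3.03) first. Signalling from the receptors of erythropoietin and stem cell factor differed less. Of 15 measured genes 4 were higher and 0 lower, namely the phosphatase Ptpn6 (2.64), the kinases Lyn (2.12) and Jak2 (1.55) and the survival factor Bcl2l1 (1.55), and the median was 0.52. In spleen lymphocyte against the same 4 tissues, 0 of the 14 heme and iron genes were called higher and 4 lower, 2 of 18 membrane genes higher and 2 lower, and 1 of 17 enzymes higher and 3 lower. Of the globins and their chaperone 4 of 7 were higher and 0 lower, of the transcription factors 6 of 14 and 1, and of the signalling genes 3 of 15 and 2. All these counts stand beside the 11.9% of all probe sets called higher and the 14.4% called lower.

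Over the 24 arrays, the 10 genes with the highest Pearson correlation to Alas2 on the log2 scale were Fcnb (0.97), Ybx3, Rbm38, Kif18b, Top2a, C5ar1, S100a8, Asf1b, Rsad2 and Hemgn (0.96). Hemgn is an erythroid factor, while Fcnb, C5ar1 and S100a8 are known from neutrophils and Kif18b, Top2a and Asf1b from dividing cells. The arrays share the contrast of bone with the other tissues, so that these values describe that contrast foremost. Without the 4 bone arrays the correlations of these 10 genes lay between 0.809 and 0.886, but they were picked on arrays that include the remaining ones. For the members, on the probe sets used for counts, the correlation was then 0.81 for Epb41, 0.58 for Car1 and 0.45 for Epor. It was 0.41 for Rhag, 0.21 for Slc4a1 (0.53 on its second probe set), 0.07 for Aqp1 and -0.10 for Car2. All signals of Rhag outside bone were under 100, as were those of Car1 in kidney, pituitary and hypothalamus, so that these values rest largely on low signals. Among the other members, Car1 ranked at 70 of 12782 probe sets and the first probe set of Aqp1 at 2607.

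With age, the erythroid genes were lower in bone at 4 months than at the 3 later ages. With 1 array per tissue and age no test could be made, and a probe set was counted as higher or lower if it changed 2-fold and both its signals were 100 or more. From 4 to 10 months in bone, 7 of 8 members were 2-fold higher and 0 lower, where 3.85% of all probe sets were higher and 5.63% lower. The exception was Alas2, with a change of 0.78 on the log2 scale. Epb41 (1.76) and Rhag (1.75) changed most, followed by Epor (1.30), Slc4a1 (1.28), Aqp1 (1.12), Car2 (1.07) and Car1 (1.02). The median over the 8 genes was 1.20, and that of all probe sets at 100 or above on both arrays was -0.0021. On the second probe sets of Slc4a1 (0.91), Car2 (0.93), Epb41 (0.78) and Epor (0.23) the change stayed under 2-fold.

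All 8 genes and all 13 probe sets had their lowest bone signal at 4 months, which held for 35.4% of the probe sets at 100 or above on all 4 bone arrays. The course after 10 months was flat by the same rule. From 10 to 18 months 0 of 8 members were 2-fold higher or lower (7.83% and 1.89% of all probe sets), with a median of -0.29, and from 18 to 24 months again 0 of 8 (1.86% and 6.29%), with a median of 0.22. The 18-month bone array shifted with the scaling. Centring on the array median moved the median of all probe sets from 0.04 to -0.28 in the first of these steps and from -0.05 to 0.25 in the second, and that of the members to -0.63 and 0.53, while 0 members were called. In the first step 835 probe sets were higher and 202 lower as deposited, 310 and 531 after centring and 446 and 385 after quantile normalization. In the second step 201 were higher and 679 lower as deposited, 451 and 240 after centring and 353 and 367 after quantile normalization. Between 4 and 24 months, Epb41 was 1.69 higher, Epor 1.52, Rhag 1.29, Car2 1.29, Car1 1.18, Aqp1 1.01, Slc4a1 0.94 and Alas2 0.92. These values are of the probe sets used for counts, and the order depended on the probe set. The second probe sets of Epb41 (0.57) and Epor (0.71) changed less and stayed under 2-fold. That of Car2 also changed less, while those of Slc4a1 (1.35) and Aqp1 (1.53) changed more. All these bone changes against 4 months rest on 1 array of that age.

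**Figure D3:**
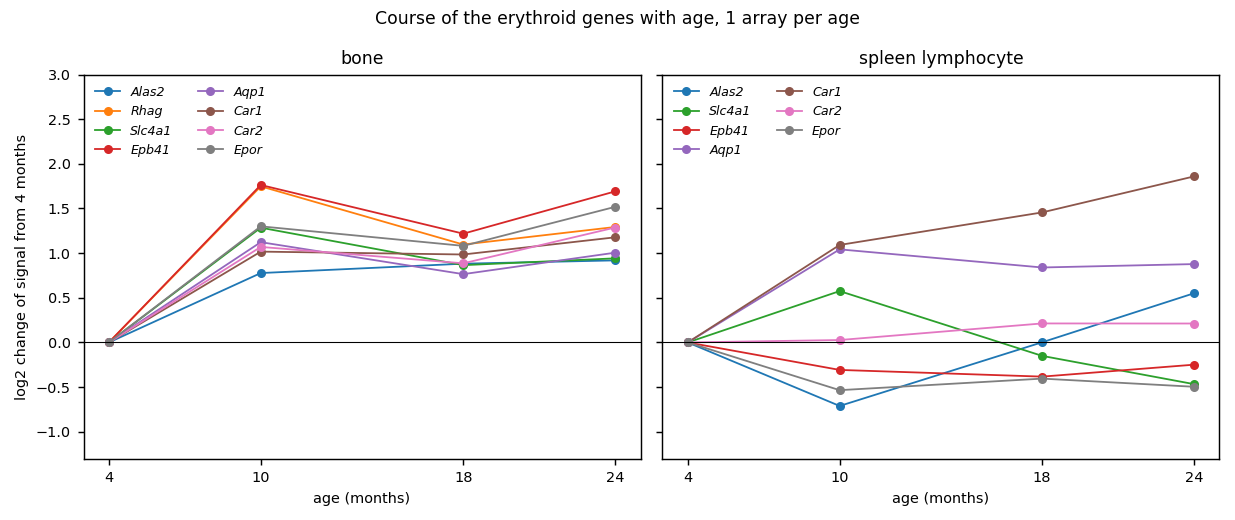
Lines give the log2 change of signal from the 4-month array in bone and in spleen lymphocyte, 1 array per age, for the genes at 100 or above on all 4 arrays of the tissue. In bone all 8 lines lie above 0 from 10 months on, while in spleen lymphocyte they run both ways and Rhag is left out for low signals.

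Other groups differed between the same pair of bone arrays. Of the wider erythroid lists, counted over genes at 100 or above on both arrays, 5 of 14 heme and iron genes, 2 of 4 globin genes, 8 of 16 membrane genes, 4 of 14 transcription factors, 3 of 17 enzymes and 0 of 10 signalling genes were 2-fold higher at 10 months, and 1 membrane gene was lower. The median of the signalling genes was 0.37. The 2-fold higher genes of the other lists included Gata1, the leading erythroid transcription factor (655 to 1557), and the heme gene Fech (3911 to 8590). The membrane gene Ank1, which ties spectrin to band 3, was another (383 to 986). Of markers of other cells, 4 of 4 platelet and 5 of 8 neutrophil genes were higher, with medians of 1.87 and 1.10. Of 8 macrophage markers 2 were higher and 1 lower (median 0.48), and of 10 cell division markers 1 was higher and 0 lower (median 0.65). Of 6 T cell markers 0 were higher or lower (median -0.04). Osteoclast markers (3 of 5), osteoblast markers (3 of 8) and endothelial markers (4 of 9) were lower, with medians of -1.13, -0.94 and -0.96, and 0 of each were higher. The summed signal of the 8 osteoblast markers was 112977, 63100, 47078 and 37493 at the 4 ages, and that of the 5 osteoclast markers was 38316, 17133, 9898 and 10420. The summed neutrophil signal was 50515, 99015, 108759 and 143951. The part of such shifts between cell types in the change of the erythroid genes was not tested. The 3' to 5' ratio of beta-actin (log2) was 1.56 at 4 months and 0.48, 1.12 and 1.31 later, and its part was not tested either.

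**Figure D4:**
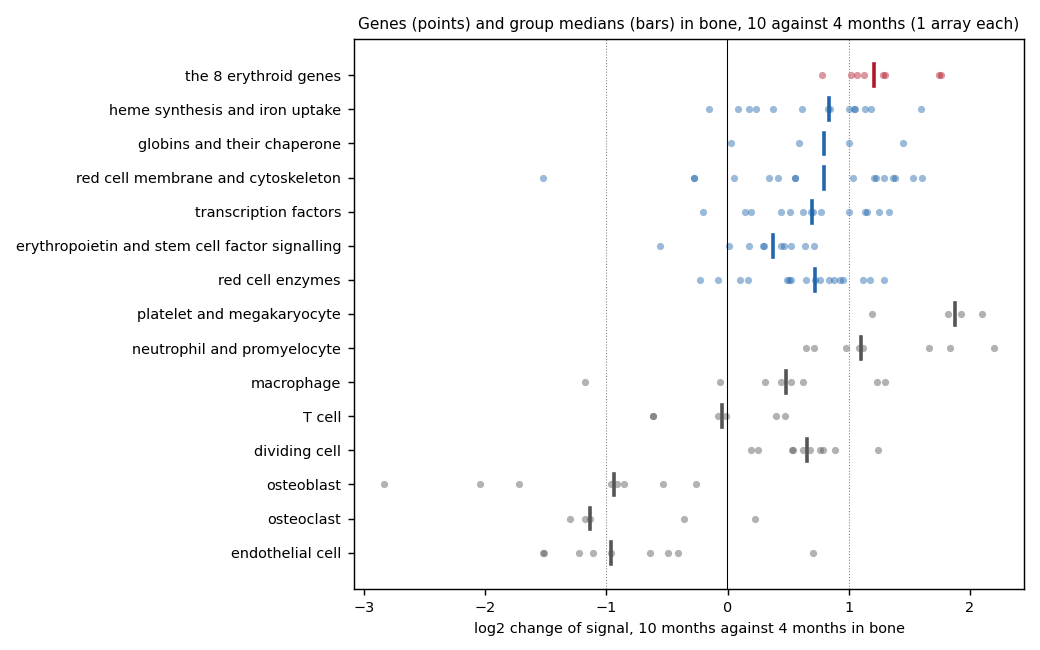
Each point is the log2 change of 1 gene in bone at 10 against 4 months, 1 array each, for genes at 100 or above on both arrays, and bars are group medians. Dotted lines mark a 2-fold change and the solid line the median of all probe sets. Of the erythroid genes (red, median 1.20) 7 of 8 lie right of the upper dotted line, as do 4 of 4 platelet genes, while the genes of the wider erythroid lists (blue) lie on both sides of it, except signalling, where all 10 lie left of it.

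In spleen lymphocyte the members ran in both directions with age. From 4 to 10 months, 2 of 7 members at 100 or above on both arrays were 2-fold higher (Car1 by 1.09 and Aqp1 by 1.04) and 0 lower, where 2.08% of all probe sets were higher and 2.19% lower, and the median of the 7 genes was 0.03. Alas2 (-0.71) and Epor (-0.53) had values below 0, and the second probe set of Epb41 was 2-fold lower (1064 to 325). From 10 to 18 months and from 18 to 24 months, 0 of 7 were called in either direction (1.32% higher and 1.4% lower of all probe sets, then 1.33% and 1.15%). Car1 was higher at each later age, with 175, 374, 481 and 636, a change of 1.86 from 4 to 24 months. The 3' to 5' ratio of beta-actin was 3.74, 2.63, 2.33 and 1.88 at the same ages, and its part in the course of Car1 was not tested. Whether the step differs between bone and spleen lymphocyte was not tested, as each has 1 array per age.

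Over the 6 tissues, limma called 0 members between consecutive ages, and called 0.0189% of all probe sets from 4 to 10 months (3 probe sets) and 0% at each later step. At an unadjusted p under 0.05 there were 767, 505 and 510 probe sets, with 1, 0 and 1 members among them. The member was Alas2 both times. From 4 to 10 months it differed by -0.71 ± 0.25 (adjusted p = 0.847, limma), with values lower in 5 of 6 tissues and higher in bone. From 18 to 24 months it differed by 0.68 ± 0.25 (adjusted p = 0.999, limma), with values higher in 6 of 6 tissues. In pituitary, Alas2 ran at 466, 68.4, 202 and 312, in kidney at 386, 262, 123 and 445, in liver at 317, 154, 94.5 and 255, and in hypothalamus at 153, 56.8, 100 and 147. Hbb, a message of circulating young red cells, was also lower at 10 than at 4 months in the same 5 tissues, with changes of -1.01 to -0.20 on the log2(signal + 50) scale, with 0.03 in bone. Ahsp did not share this step. From 4 to 10 months it was higher in 4 tissues and lower in 2, though it lay under 100 on every array outside bone and spleen lymphocyte. Over this step the globin Hba-a3 was lower in kidney, liver and hypothalamus. It was higher in spleen lymphocyte (2636 to 2845) and pituitary (786 to 1238). A probe set given to Hba-a1 and Hba-a2 was higher in pituitary (7810 to 8045). The other globin probe sets given to more than 1 gene were lower in all 5 tissues outside bone. From 18 to 24 months Hbb was higher in 5 of 6 tissues and lower in hypothalamus (-0.86). The share of blood left in each tissue was not measured, and its part in the level of Alas2 was not tested.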

How the data were processed

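RNA of 6 tissues at 4 ages was hybridised by the authors to Affymetrix RAE230A arrays, 1 per tissue and age. The deposited values are intensities: signals on a linear scale, calculated by the authors with MAS5.0 and scaled to a target of 500. Arrays give no read depth, and the number of arrays, 4 per tissue, limits the precision. The arrays were grouped by the tissue and age of their labels, and no 2 columns were identical.

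The table held 15923 probe sets, of which 57 controls were left out. Probe sets were named through the platform annotation: 12783 had 1 symbol, 312 several and 2771 none. Of the named ones, 12748 were found in RefSeq by gene identifier, and 0 symbols differed. Per gene, counts used the probe set at 100 or above on the most arrays, ties by the higher mean.

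limma 3.58.1 in R 4.3.3 (lmFit, eBayes with trend) was fitted to log2(signal + 50) of 15866 probe sets without a filter, with tissue and age as factors, Benjamini-Hochberg adjustment and 15 residual degrees of freedom. Since tissues of an age share rats, age served as the block. On simulated data with a tissue difference of 2, 100 of 100 changed probe sets were recovered, and with an age difference of 1, 64 of 100. These changes were planted only in probe sets with a residual spread under 2 times the median. The simulated noise was independent between arrays, and no change with age was particular to a tissue, so that the rates do not extend to noisier probe sets. Consecutive ages within bone and spleen lymphocyte were compared by fold alone. Python 3.11.15 with pandas 2.3.3 was used.

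The members and the gene lists were chosen with earlier results of these data known. Named were all members, the 3 genes of each pathway list with the largest called difference between bone and the 4 tissues, any called in the opposite direction, and the 10 genes most like Alas2. Others were named after their values were seen: Bcl2l1, Epo, Gata1 and Ank1. Lists of red cell genes and of markers of the other cells of these tissues were counted. Alternatives were other pseudocounts, a floor of 100, quantile normalization, median centring, array weights, another probe set per gene, no age factor, no minimum difference, other fold and signal limits, and each array left out.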

Additional observations from a re-analysis of the deposited data

Results flagged for a closer look

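Of 69 groups of 4 arrays with signals of the member probe sets, 5 held an array far from the other 3 by Dixon's ratio of gap to range, where chance gives about 1 in 20. In bone at 4 months this held for Alas2 (0.845, 7371 against 12632 to 13937), Car1 (0.836, 3713 against 7348 to 8396) and the second probe set of Car2 (0.847, 6667 against 11992 to 13335). The second probe set of Epb41 was high in hypothalamus at 24 months (0.940, 728 against 332 to 349), while the first one was lowest there (222). The second probe set of Slc4a1 was low in kidney at 18 months (0.956, 556 against 942 to 964), the array with the lowest kidney signals of Alas2, Aqp1 and Epor as well.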

How the results depend on the processing

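The counts of members called higher in the 4 tissue comparisons stayed within 1.5 times their value under all other settings tried, with or without the age factor, except that without the minimum difference 4 members in place of 2 were called higher in kidney (with Slc4a1 and Epb41). In spleen lymphocyte against the 4 tissues, 6 members in place of 3 were then called, with Epor higher and Aqp1 and Car2 lower. No member was called over the 6 tissues by age under any setting. With each array left out in turn, 8 members were called in bone against the 4 tissues, 3 in spleen lymphocyte, 7 to 8 between these tissues and 2 to 3 in kidney. No paired analysis was possible beyond the age factor because an age is the only link between arrays. Without the minimum difference, the probe sets called went from 3108 to 7572 in bone, from 4164 to 8682 in spleen lymphocyte, from 2685 to 5693 between these tissues and from 2655 to 6396 in kidney, and array weights moved those called from 4 to 10 months from 3 to 8.

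The fold rule within a tissue depended more on its limits. In bone from 4 to 10 months, 7 members were higher at 2-fold, 8 at 1.5-fold, 2 at 3-fold (Epb41 and Rhag), 5 after quantile normalization (without Car1 and Car2) and 6 with the probe sets of highest mean signal. From 10 to 18 months 1 member (Rhag) was lower at 1.5-fold, where 0 were at 2-fold. In spleen lymphocyte from 4 to 10 months, 2 were higher at 2-fold, 1 with signals of at least 200, after quantile normalization or with the probe sets of highest mean, and 0 at 3-fold, and 1 (Alas2) was lower at 1.5-fold. From 10 to 18 months 1 (Alas2) was higher and 1 (Slc4a1) lower at 1.5-fold. The signals of Rhag outside bone, all under 100, give no order between those tissues.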
